A study of Danio rerio with 8 samples.

Results

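Transcripts of the adhesion genes alcama (ENSDARG00000026531), itgb1b (ENSDARG00000104484), magi1b (ENSDARG00000003169) and ctnnb1 (ENSDARG00000014571) were followed across 5 clusters of single zebrafish skin cells. They are 4 of the 19914 features in the deposited table, each on a row of its own. The genes were chosen by the authors' comparison of cluster c5 with cluster c3, in which alcama, itgb1b and magi1b stood lower in c5 and ctnnb1 stood higher. That difference is therefore given below as a description only. The sorted cells came from the flank dermis of untreated adult zebrafish carrying both pnp4a:palmmCherry and pnp4a:nlsEos, reporters that the regulatory elements of the iridophore gene pnp4a drive in membranes and nuclei. Cells strongly positive for both reporters were sorted singly into plates. Of the plates sequenced, 4 held cells of stripe skin, labelled dark, and 4 held cells of interstripe skin, labelled light. The skin came from 4 fish, pooled within each processing cycle before the sort, so the plates are not separate skin samples. The reporters mark cells that use pnp4a regulatory elements, so the sort was by reporter and not by skin position within a band.

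Iridophores are pigment cells of the neural crest that reflect light from stacked guanine crystals. They lie densely packed in the interstripes and loosely in the stripes of the adult pattern. Such sheets of cells are held together by adhesion molecules of several families. alcama encodes an immunoglobulin family protein, also known as CD166, that binds its like on neighbouring cells. itgb1b encodes an integrin beta 1 subunit, which pairs with alpha subunits at the cell surface and binds the extracellular matrix. magi1b encodes a scaffold with PDZ domains that gathers proteins at tight and adherens junctions in mammals. ctnnb1 encodes beta-catenin, which ties cadherins to the actin cytoskeleton and also carries the canonical Wnt signal to the nucleus.

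The authors sorted 646 cells into clusters, of which c5, c1 and c3 held 72, 194 and 122, and c2 and c4 held 176 and 82. The paper singles out c5, c1 and c3 as iridophores, with c5 mostly from stripes, c3 mostly from interstripes and c1 from both. Read depth per cluster is not given here. Genes found per cell, from corrected counts above 0, averaged 739.6 to 846.1 in c5, c1, c3 and c2 and 1395 in c4. Of 7 iridophore markers, gpnmb, pnp4a, alx4a, alx4b and tfec were found in at least 10% of cells of c5, c1, c3 and c4, and all of these but tfec in c2. The summed means of the 7 were 8.48 in c5, 9.66 in c1 and 10.1 in c3, against 5.20 in c2 and 6.55 in c4. The paper also describes lower iridophore markers in c2 and c4 and proposes that their cells may not be fully differentiated. Of 36 markers of 7 other cell types, 1 reached 10% of cells in c5 and 0 did in c1 and c3, against 4 in c2 and 5 in c4. Levels are means of ln(corrected count + 1), over all cells or over the cells with the gene as stated. Corrected counts are unique molecular identifiers adjusted for depth. The clusters pool all plates and were drawn from the same values, so the cells are no replicates of a condition, their SD says nothing of the spread between fish, and no difference between clusters was tested. Intervals on a share of cells are exact Clopper-Pearson 95% intervals and cover counting error only. How often intervals of all features failed to overlap was not counted. The values of c5 and c3 also chose the genes, so overlap or its lack is given as a description only.

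The adhesion molecule gene alcama was found in 11 of 72 cells of c5 (15.3%, 7.88 to 25.7%), 42 of 194 cells of c1 (21.6%, 16.1 to 28.1%) and 41 of 122 cells of c3 (33.6%, 25.3 to 42.7%). Its share was 17.6% in c2 (31 of 176 cells, 12.3 to 24.1%) and 67.1% in c4 (55 of 82 cells, 55.8 to 77.1%). The order from low to high was c5, c2, c1, c3 and c4, and c4 lay above every other interval. The intervals of c5, c2 and c1 overlapped each other, and that of c3 lay above that of c2 alone among them. In the cells that had it, alcama averaged 2.81 ± 1.31 in c5, 3.23 ± 1.32 in c1 and 2.88 ± 1.39 in c3 (± SD of these cells). These correspond to 15.5, 24.4 and 16.8 corrected counts in a typical cell with the gene. In c2 the mean was only 0.86 ± 0.58, or 1.37 corrected counts, and in c4 it was 1.46 ± 1.09, or 3.30 corrected counts. alcama was thus found in like shares of c5 and c2, yet at much lower values per cell in c2. Over all cells its mean was 0.43 ± 1.13 in c5, 0.70 ± 1.47 in c1, 0.97 ± 1.58 in c3, 0.15 ± 0.41 in c2 and 0.98 ± 1.13 in c4.

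The integrin subunit gene itgb1b was found in 16 cells of c5 (22.2%, 13.3 to 33.6%), 56 of c1 (28.9%, 22.6 to 35.8%) and 50 of c3 (41.0%, 32.2 to 50.3%). Its share was 18.2% in c2 (32 cells, 12.8 to 24.7%) and 53.7% in c4 (44 cells, 42.3 to 64.7%). Here the order was c2, c5, c1, c3 and c4, and every pair of neighbours in it had overlapping intervals. Cells with itgb1b differed little in level between the iridophore clusters, with means of 2.0 ± 0.49 in c5, 2.2 ± 0.80 in c1 and 2.08 ± 1.01 in c3 (± SD of these cells). The SD in c5 was the smallest of any of the 4 genes in any cluster. Cells with the gene averaged 1.01 ± 0.62 in c2 and 0.97 ± 0.69 in c4. The mean over all cells was 0.44 ± 0.87 in c5, 0.64 ± 1.09 in c1, 0.85 ± 1.21 in c3, 0.18 ± 0.47 in c2 and 0.52 ± 0.70 in c4. itgb1b was the only gene of the 4 with a mean in c4 below that of c3 and also below that of c1.

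The scaffold gene magi1b was the least often found of the 4 in every cluster. It was present in 5 cells of c5 (6.94%, 2.29 to 15.5%), 21 of c1 (10.8%, 6.83 to 16.1%) and 20 of c3 (16.4%, 10.3 to 24.2%). It was present in 20 cells of c2 (11.4%, 7.08 to 17.0%) and 31 of c4 (37.8%, 27.3 to 49.2%). All intervals but that of c4 overlapped each other. In cells with the gene the mean was 1.67 ± 1.18 in c5, 2.42 ± 1.62 in c1, 2.39 ± 1.19 in c3, 2.11 ± 1.15 in c2 and 1.42 ± 1.18 in c4 (± SD of these cells). With 5 cells behind it, the value in c5 is the least certain of these. The mean over all cells was 0.12 ± 0.51 in c5, 0.26 ± 0.92 in c1, 0.39 ± 1.00 in c3, 0.24 ± 0.77 in c2 and 0.54 ± 1.00 in c4.

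The beta-catenin gene ctnnb1 followed another order. It was found in 26 cells of c5 (36.1%, 25.1 to 48.3%), 31 of c1 (16%, 11.1 to 21.9%) and 29 of c3 (23.8%, 16.5 to 32.3%). Its share was 23.9% in c2 (42 cells, 17.8 to 30.9%) and 63.4% in c4 (52 cells, 52.0 to 73.8%). The order was c1, c3, c2, c5 and c4. The interval of c5 overlapped those of c3 and c2 but lay above that of c1. This reuses the c5 value that helped choose ctnnb1, and the rate of non-overlap among all features was not counted. Cells with ctnnb1 had nearly the same mean in c5 and c1, at 2.81 ± 1.33 and 2.83 ± 1.14, and 2.53 ± 1.20 in c3 (± SD of these cells). Their mean was 1.52 ± 1.29 in c2 and 1.19 ± 0.78 in c4. Over all cells the mean was 1.01 ± 1.57 in c5, 0.45 ± 1.13 in c1, 0.60 ± 1.23 in c3, 0.36 ± 0.90 in c2 and 0.75 ± 0.84 in c4, so that c5 was highest on this measure although c4 had the larger share.

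**Figure D1:**
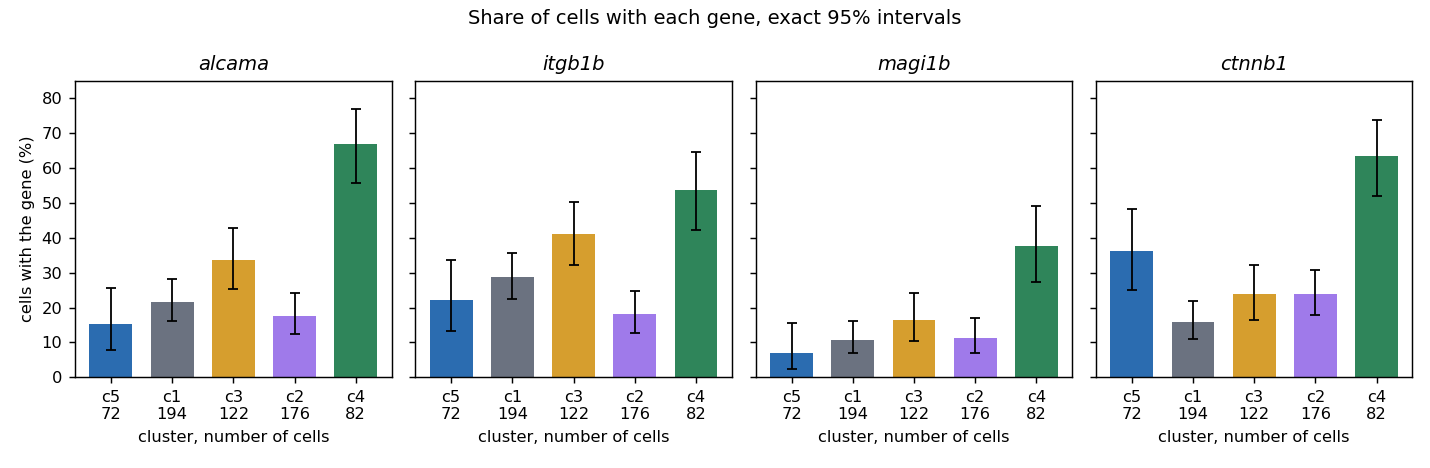
Percent of cells with alcama, itgb1b, magi1b or ctnnb1 in clusters c5, c1, c3, c2 and c4 (bars), with exact 95% intervals (lines) and the number of cells under each cluster. alcama, itgb1b and magi1b climb in the order c5, c1, c3, ctnnb1 is lowest in c1, and c4 has the highest bar for each gene (37.8 to 67.1%).

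**Figure D2:**
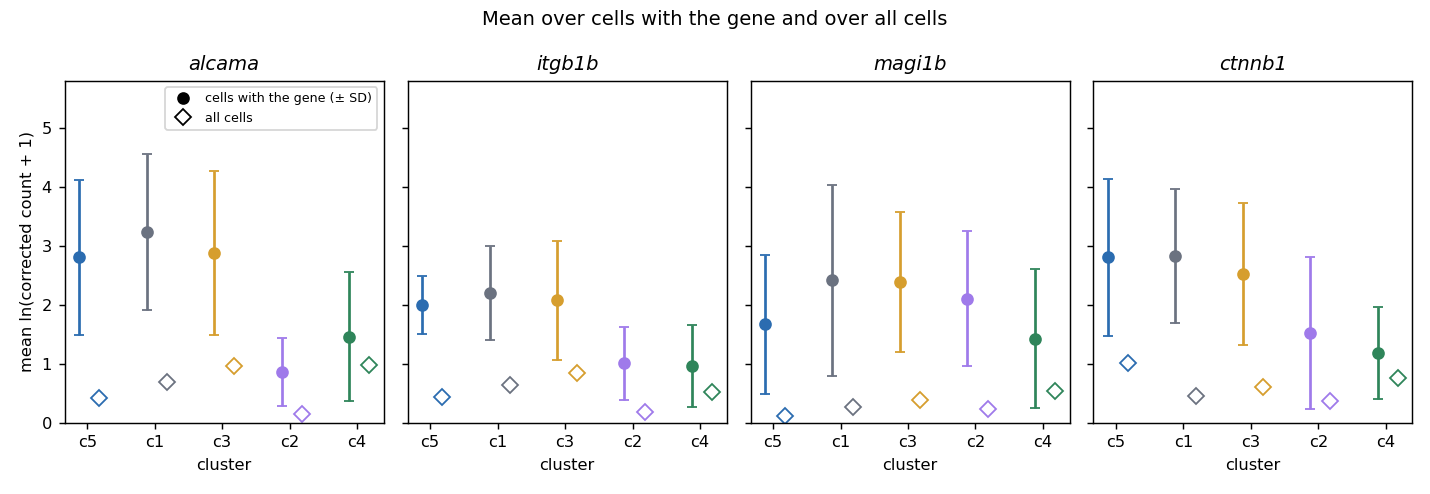
Mean natural log of the corrected count plus 1 over the cells with the gene (filled points, lines ± SD over cells) and over all cells (open diamonds), by cluster. Cells with alcama sit near 3 in c5, c1 and c3 (2.81 to 3.23) and at 0.86 in c2, while itgb1b stays between 2.0 and 2.2 in the iridophore clusters.

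Between c5 and c3, the contrast that chose the genes, the differences of means over all cells (c5 minus c3) were -0.54 for alcama, -0.41 for itgb1b, -0.27 for magi1b and 0.41 for ctnnb1. With a difference of at least 0.25 as the line, 3 of the 4 were lower in c5 and 1 was higher. Of the 1779 features that reached 10% of cells in c5 or in c3, 11.9% were lower and 14.6% were higher in c5 by this line, and the median difference over all was 0.037. Nothing is read from the count, since this contrast chose the genes. For alcama and itgb1b the difference lay in how many cells had the gene (-18.3 and -18.8 percentage points), while the cells with the gene differed by only -0.072 and -0.077. For magi1b the share differed by -9.45 percentage points and the cells with the gene by -0.71. For ctnnb1 both parts were positive, at 12.3 percentage points and 0.28. The interval of the share in c5 overlapped that in c3 for each of the 4 genes. magi1b lay just past the line of 0.25. Among adhesion genes that reached 10% of cells in c5 or c3, the nearest to fall short of it were dlg1 at -0.23, cdh11 at 0.23 and itga6b at -0.22. Markers of other cell types also differed between these clusters. Their summed means over 7 lists ran from 0.048 (melanophore) to 0.40 (immune) in c5 and from 0.086 (endothelial) to 0.25 (immune) in c3. Melanophore markers were lower in c5 than in c3, at 0.048 and 0.24. So were xanthophore markers, at 0.18 and 0.24, and fibroblast markers, at 0.16 and 0.22. Immune markers were higher in c5, at 0.40 and 0.25, as were muscle markers, at 0.17 and 0.097. Endothelial markers, at 0.14 and 0.086, and keratinocyte markers, at 0.25 and 0.21, were also higher in c5. These sums were low, and of the 36 markers 1 reached 10% of cells in c5 and 0 in c3. A neural crest and Schwann list, outside the 7, summed to 1.31 in c5 and 0.85 in c3. The part of these markers in the differences was not tested.

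Cluster c1, which holds cells of both skin bands, lay between c5 and c3 for alcama, itgb1b and magi1b. The differences of means over all cells, c5 minus c1, were -0.27 for alcama, -0.19 for itgb1b and -0.15 for magi1b. The differences of c1 minus c3 were -0.27, -0.22 and -0.13 for the same genes. ctnnb1 did not follow, because its mean in c1 was below both others, with 0.56 for c5 minus c1 and -0.15 for c1 minus c3. By the line of 0.25, alcama was lower and ctnnb1 higher in c5 than in c1, beside 5.51% lower and 13.7% higher of 1706 features. alcama was also lower in c1 than in c3, beside 9.14% lower and 3.88% higher of 1598 features. Both contrasts reuse the values of c5 or c3 that chose the genes. An intermediate place of c1 was common. Of the 212 features lower in c5 than c3 by the line, 84.9% had c1 between them, and of the 260 higher in c5, 79.6% did. In cells with the gene, the order changed. The mean in c1 was then the highest of the iridophore clusters for alcama and itgb1b. For magi1b it was nearly level with c3, and for ctnnb1 with c5. How often c1 was highest on this measure among all features was not counted, so nothing is read from this order. There c5 minus c1 was only -0.024 for ctnnb1, and c1 minus c3 was only 0.033 for magi1b. For alcama c1 minus c3 was 0.36.

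The iridophore clusters c5, c1 and c3, pooled to 388 cells, were also set against c2 and c4. Pooled, alcama was found in 24.2% of cells (20.0 to 28.8%) at a mean over all cells of 0.73 ± 1.46, itgb1b in 31.4% (26.9 to 36.3%) at 0.67 ± 1.1, magi1b in 11.9% (8.81 to 15.5%) at 0.28 ± 0.89 and ctnnb1 in 22.2% (18.1 to 26.6%) at 0.60 ± 1.27 (SD over cells). Against c2 the differences of means were 0.58 for alcama, 0.48 for itgb1b, 0.24 for ctnnb1 and 0.036 for magi1b. By the line of 0.25, alcama and itgb1b were higher in the pooled clusters, beside 33.7% higher and 3.55% lower of 1438 features, with a median difference of 0.18. The pooled share minus that of c2 was 6.61 percentage points for alcama, 13.3 for itgb1b, 0.49 for magi1b and -1.70 for ctnnb1. For alcama, the pooled mean over cells with the gene exceeded that of c2 by 2.17. Among the 1348 features (a set defined after the values were seen) found in at least 10% of the pooled cells the median of this excess was 0.67, and alcama ranked 8th. The excess was 1.20 for ctnnb1, 1.12 for itgb1b and 0.21 for magi1b, the last below the median of all features.

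Against c4, every gene of the 4 was found in a smaller share of the pooled iridophore cells and at a higher level in the cells that had it. The ratio of the pooled share to that of c4 was 0.36 for alcama, 0.59 for itgb1b, 0.31 for magi1b and 0.35 for ctnnb1, beside a median of 0.42 over the 1348 features. From the lowest ratio, magi1b ranked 50th, ctnnb1 171st, alcama 240th and itgb1b 1125th, so itgb1b alone lay above the median. In cells with the gene the pooled mean exceeded that of c4 by 0.90 (magi1b) to 1.57 (alcama), beside a median of 1.35. Over all cells the differences of pooled minus c4 were -0.245 for alcama, 0.15 for itgb1b, -0.26 for magi1b and -0.15 for ctnnb1. By the line, magi1b alone was lower in the pooled clusters, beside 15.1% lower and 5.82% higher of 2371 features. As the log of a modelled mean corrected count plus 1, that call turned, at 0.16 for magi1b. On that scale each of the 4 genes was higher in the pooled clusters. The model took the log values of cells with the gene as normal, which was not tested. Genes found per cell were 1395 in c4, as given above. The summed means of xanthophore markers, 0.18 to 0.26 in c5, c1 and c3, were 1.42 in c2 and 1.07 in c4, those of keratinocyte markers, 0.18 to 0.25 in c5, c1 and c3, were 0.76 and 0.84, and those of fibroblast markers, 0.12 to 0.22, were 0.65 and 0.73. The part of depth and of these markers in the 4 genes' values was not tested.

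**Figure D3:**
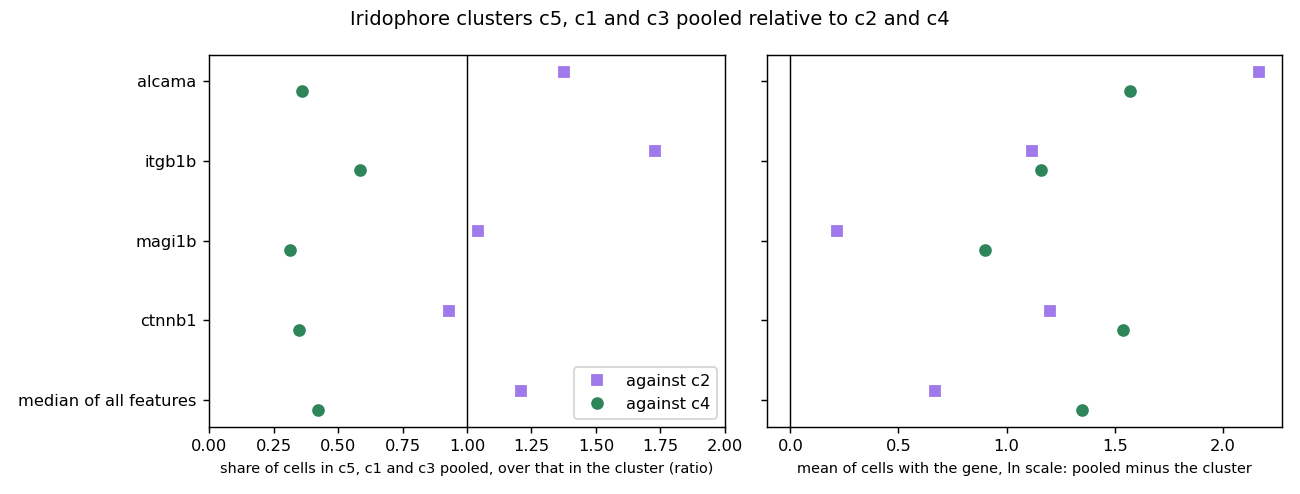
The iridophore clusters c5, c1 and c3 pooled against c2 (squares) and c4 (circles), as the ratio of shares of cells with the gene (left) and the difference of means over cells with the gene on the natural log scale (right), for the 4 genes and the median of 1348 features. alcama stands at 2.17 against c2 where the median is 0.67, and all ratios against c4 lie between 0.31 and 0.59.

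Zebrafish carry a second copy of each of these genes, and the copies were found in fewer cells. alcamb was present in 1 cell of c5 (1.39%, 0.0352 to 7.50%), 9 of c1 (4.64%, 2.14 to 8.62%), 4 of c3 (3.28%, 0.900 to 8.18%) and 4 of c2 (2.27%, 0.622 to 5.72%). In c4, where alcama had its highest share, alcamb was in 0 of 82 cells, for which a limit of 3 cells gives 3.66% and the exact interval reaches 4.40%. itgb1a, the other integrin beta 1 gene, was nearly level, at 5.56% of c5, 5.67% of c1, 4.92% of c3, 6.82% of c2 and 6.10% of c4. Cells with itgb1a averaged 1.20 ± 1.01 in c5 (4 cells), 1.22 ± 0.91 in c1 (11 cells), 1.24 ± 0.78 in c3 (6 cells), 1.93 ± 1.1 in c2 (12 cells) and 2.61 ± 0.88 in c4 (5 cells), too few cells for a firm order. A further locus named itgb1b.1 was in 0 to 6.10% of cells at about 1 corrected count per cell with it. magi1a was in 1 cell of c5, 5 of c1, 0 of 122 of c3 (2.46% by the limit of 3 cells, 2.98% by the exact interval), 4 of c2 and 1 of c4. ctnnb2, the second beta-catenin gene, was in 11.1% of c5 (4.92 to 20.7%), 10.8% of c1 (6.83 to 16.1%), 9.84% of c3 (5.19 to 16.6%), 9.09% of c2 (5.29 to 14.3%) and 29.3% of c4 (19.7 to 40.4%). Its mean over all cells was 0.30 in c5, 0.27 in c1 and 0.25 in c3, a difference of c5 minus c3 of 0.049. For ctnnb1 the difference was 0.41, but this contrast chose ctnnb1 and did not choose ctnnb2. ctnnb2 was also found in fewer cells, so the gap between these differences is given as a description only. How reads shared by near-identical copies were counted was not examined, so the split between copies is uncertain.

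**Figure D4:**
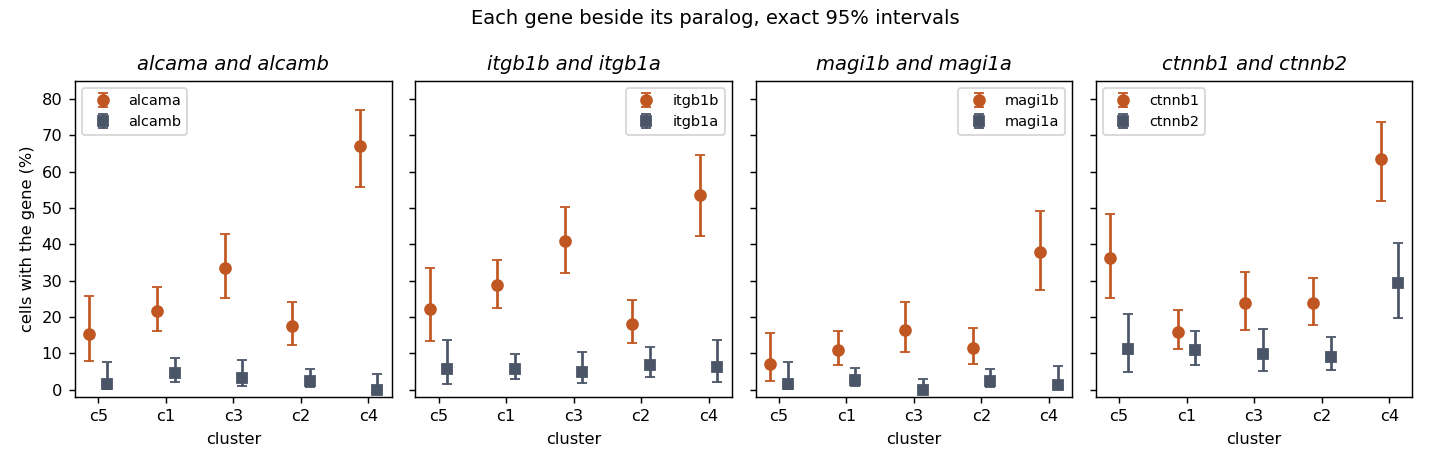
Percent of cells with each gene (circles) and its paralog (squares) by cluster, with exact 95% intervals. alcamb, itgb1a and magi1a stay at or below 6.82% in every cluster, and ctnnb2 lies between 9.09 and 11.1% except in c4, where it reaches 29.3%.

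The 7 families of adhesion and Wnt genes examined around the 4 genes held 336 measured members in all. Of these, 37 were found in at least 10% of cells of c5 or c3. By the line of 0.25, 8 of the 37 were lower in c5 (21.6%, beside 11.9% of all 1779 features) and 4 were higher (10.8%, beside 14.6%), with a median difference of -0.047 beside 0.037. These counts include the 4 genes that the same contrast chose. Without them 5 of 33 were lower (15.2%) and 3 were higher (9.09%), a count made after the data were seen. By a line of 0.5, 3 were lower and 2 higher, beside 3.65% and 4.95% of all features, and alcama was among the 3. Of the 12 past the line of 0.25, afdna, jam3b, magi1b, pard3bb and tjp1a reached 10% of cells in only the cluster where they were higher, so the filter itself favoured a difference, and the counts are given as a description. Among 32 measured integrin subunits, itgb1b and itga6b were the members that reached 10% of cells in c5 or c3, and over all 646 cells they ranked second and first. itga6b, an alpha subunit that pairs with beta 1 or beta 4 to bind laminin, was found in 43.1% of c5, 36.1% of c1, 50.0% of c3, 31.2% of c2 and 75.6% of c4. Of 55 integrin adaptors, 9 passed this filter, and tln1 was lower and ilk higher in c5. tln1 encodes talin, which binds integrin tails to actin, and was found in 25.0% of c5 (15.5 to 36.6%), 33.5% of c1 and 43.4% of c3 (34.5 to 52.7%), with means over all cells of 0.83, 0.98 and 1.24. ilk encodes the integrin-linked kinase, an adaptor at the same sites, and went the other way, at 29.2% of c5 (19.0 to 41.1%), 22.7% of c1 and 16.4% of c3 (10.3 to 24.2%), with means of 0.82, 0.53 and 0.29. The tetraspanin gene cd81a, the most abundant of this list, differed by 0.17. Of 39 genes of matrix ligands, 5 passed the filter and 0 reached the line, with sparc at 0.21 and hspg2, which encodes perlecan, at 0.12.

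Among 39 cadherin and catenin genes, 5 passed the filter, ctnnb1 was higher in c5 and afdna was lower. Beside these and the calls that follow, 14.6% of all 1779 features were higher in c5 and 11.9% were lower. The classical type II cadherin gene cdh11, the most often found of the list, was present in 72.2% of c5 (60.4 to 82.1%), 45.9% of c1 (38.7 to 53.2%), 50.0% of c3 (40.8 to 59.2%), 48.9% of c2 and 79.3% of c4. Its share in c5 thus lay above those of c1 and c3 with no overlap of intervals. The difference of means, c5 minus c3, was 0.23, short of the line used for these calls. cdh11 was named both as the most abundant of its list and for its difference of c5 minus c3. The rate of non-overlap among all features was not counted, so the gap between intervals is given as a description only. The cells that had cdh11 averaged less in c5 (2.02 ± 1.18) than in c1 (2.41 ± 1.27) and c3 (2.47 ± 1.15). afdna encodes afadin, which links nectins to actin, and was found in 4.17% of c5, 8.25% of c1 and 12.3% of c3 at a difference of -0.30. It passed the filter through c3 alone, where it was higher. Of 50 PDZ scaffolds, 5 passed the filter. The junction scaffold tjp1a, with magi1b, was lower in c5, and pard3bb, of the Par3 family of polarity scaffolds, was higher at 0.38. tjp1a and magi1b passed the filter through c3 alone and pard3bb through c5 alone, so the filter favoured these differences. tjp1a averaged 0.074 ± 0.52 in c5 against 1.21 ± 1.59 in c3, and jam3b, the gene of a junctional adhesion protein, had 0.21 ± 0.84 and 1.14 ± 1.56 (SD over cells), so both differed by more than any of the 4 genes. Of 44 immunoglobulin family genes, 4 passed, of which jam3b and alcama were lower in c5 and 0 were higher. alcama was chosen by this contrast, and jam3b passed through c3 alone (6.94% of c5 and 43.4% of c3). f11r.1, another junctional adhesion molecule gene, differed by -0.047.

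The Wnt and beta-catenin list was examined because ctnnb1 serves both adhesion and signalling. Of 77 measured members, 7 passed the filter, with a median difference of -0.0038 beside 0.037 over all 1779 features. Of all these features, 14.6% were higher and 11.9% lower in c5 by the line of 0.25. mycb, a Myc transcription factor gene that responds to many signals including Wnt, was higher in c5, at 41.7% of c5 (30.2 to 53.9%), 23.2% of c1 (17.5 to 29.8%) and 22.1% of c3 (15.1 to 30.5%) and means of 1.22, 0.59 and 0.55. wnt11r, which encodes a Wnt ligand, was lower in c5, at 26.4% of c5 (16.7 to 38.1%), 24.7% of c1 (18.8 to 31.4%) and 41.8% of c3 (32.9 to 51.1%) and means of 0.76, 0.67 and 1.14. The other 5 that passed were dvl2, dvl3b, csnk1a1, ryk and fzd7b, and they differed by -0.18 to 0.13.

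**Figure D5:**
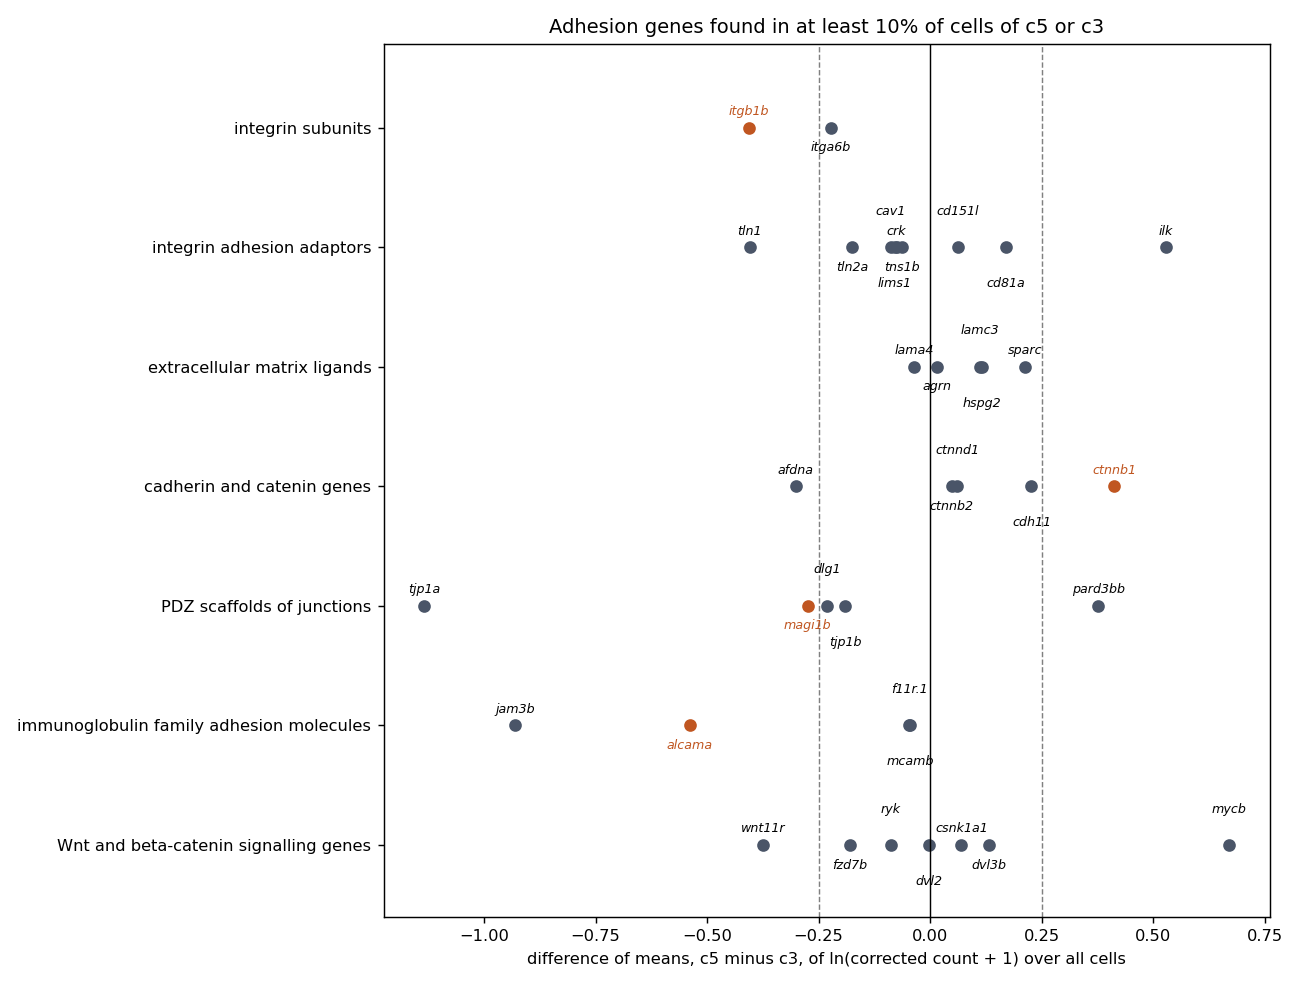
Difference of means over all cells, c5 minus c3, on the natural log scale, for the 37 members of 7 gene lists found in at least 10% of cells of c5 or c3, with alcama, itgb1b, magi1b and ctnnb1 in orange. Dashed lines mark 0.25 and -0.25, beyond which 4 genes lie to the right and 8 to the left, the 4 genes in orange among them because this contrast chose them (14.6% of all features lie beyond the right line and 11.9% beyond the left).

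The features most like each gene were taken as those with the smallest root mean square difference of the 5 cluster means, after each feature's own average was subtracted, among 2582 features. For itgb1b the nearest was tln1 at 0.043, followed by tuba1b at 0.049 and fkbp1aa at 0.050, where itgb1b itself varied by 0.22 on this measure. For alcama they were zfhx4 at 0.10, eif5a at 0.11 and lrrc8aa at 0.12, beside a variation of 0.32 of its own. For magi1b they were ccdc85b and nfe2l1b, at 0.027 and 0.028, and lgals3a at 0.029, beside 0.14. For ctnnb1 they were proca1 at 0.064, trip10a at 0.067 and ubc at 0.073, beside 0.23. The 5 points are clusters of the same libraries, of which c4 had the most genes found per cell. Among them are c5 and c3, whose values chose alcama, itgb1b, magi1b and ctnnb1, and tln1 was named above for its difference between them. In cells with the gene, c5 minus c3 was 0.48 for tln1 and -0.077 for itgb1b. How close the 2582 features generally lie to each other by this measure was not computed.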

How the data were processed

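Single cells from 4 stripe (dark) and 4 interstripe (light) plates were sequenced with unique molecular identifiers. The authors trimmed reads with Cutadapt, aligned and counted them with STAR and STARsolo on GRCz11 (bcl2fastq version 2.20 in the submitters' processing notes), filtered cells on features and counts, removed mitochondrial features and spike-ins, corrected counts with SCTransform in Seurat and clustered the cells. No doublet call is given in the sources used here. The deposited table holds, per feature and cluster, the percent of cells with a corrected count above 0. For the cells with the gene it also holds the authors' mean and SD on the natural log scale, as ln(corrected count + 1), on which 1 corrected count is 0.693. The percents were turned back into whole numbers of cells, and means and SDs over all cells were rebuilt with cells lacking the gene at 0. The rebuilding was tested on simulated data. A second deposited table, with the fold changes, shares and p-values of the authors' comparison of c5 with c3, was not used.

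Features that reached 10% of cells on either side of a contrast were compared, with a difference of means of 0.25 as the line. No p-value was computed, since the table pools plates. The 4 genes and the gene lists were chosen with earlier results of these data known. Named genes were the 4, their paralogs, and from each list the most abundant member and the 2 with the largest difference of c5 minus c3, besides the 3 most like each of the 4. dlg1, dvl2, dvl3b, csnk1a1, ryk and fzd7b, and those in the closing section, were named after their values were seen. A listed symbol that stands on several rows, cdh23, was left out. Of the feature identifiers, 18929 were found in the reference names. Matched names for erythrocyte markers were not found, so that list was not used. Python 3.11.15, pandas 2.3.3, numpy 2.4.6 and scipy 1.17.1 were used.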

Additional observations from a re-analysis of the deposited data

How the results depend on the processing

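Each difference was recomputed over expressing cells only, as the log of the mean corrected count plus 1, as a share of cells, and with the median of all features subtracted. The mean corrected count was not given and was modelled from the mean and SD of the cells with the gene. Their log values were taken as normal, which was not tested, so values on that scale rest on this assumption. Over expressing cells, c5 minus c3 was -0.072 for alcama, -0.077 for itgb1b and -0.71 for magi1b, and c5 minus c1 was -0.43 for alcama, -0.74 for magi1b and -0.024 for ctnnb1, the last with its sign reversed. There c1 minus c3 was 0.36 for alcama, 0.13 for itgb1b, 0.033 for magi1b and 0.30 for ctnnb1, each with its sign reversed. Pooled iridophore clusters minus c2 gave 2.17 for alcama, 1.12 for itgb1b, 0.21 for magi1b and 1.20 for ctnnb1, and minus c4 gave 1.57, 1.16, 0.90 and 1.54 for the same genes, with the signs of alcama, magi1b and ctnnb1 reversed. As the log of the mean corrected count, c5 minus c3 was -0.88 for alcama, -0.83 for itgb1b, -0.98 for magi1b and 0.78 for ctnnb1, and c5 minus c1 was -0.72, -0.49, -1.17 and 0.92. On that scale c1 minus c3 was -0.16 for alcama, -0.34 for itgb1b and 0.19 for magi1b (reversed), pooled minus c2 was 2.32, 1.16, 0.49 and 0.89, and pooled minus c4 was 0.88, 0.70, 0.16 and 0.92, with alcama, magi1b and ctnnb1 reversed. With the median of all features subtracted, pooled minus c2 was 0.31 for itgb1b, -0.14 for magi1b (reversed) and 0.060 for ctnnb1, and pooled minus c4 was -0.082 for ctnnb1. As a share of cells, pooled minus c2 was -1.70 percentage points for ctnnb1 and pooled minus c4 was -22.2 for itgb1b, both of the opposite sign to the difference of means. With 0.5 in place of 0.25 as the line, 2 members of the 7 lists were higher in c5 than c3 and 3, alcama included, were lower, beside 4.95% and 3.65% of all features. Without the 4 genes, an alternative chosen after seeing the data, 5 were lower by the line of 0.25. The causes were not tested. No paired analysis was possible because the table pools the plates, and for the same reason no replicate could be left out.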

Other observations

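Of 52 members of the 7 lists that reached 10% of cells in the pooled iridophore clusters or in c4, 7 had lower means in the pooled clusters by the line of 0.25 (13.5%, beside 15.1% of all features) and 1 had a higher one (1.92%, beside 5.82%), so the lower count was near that of all features. The 7 were magi1b, ctnna2, ctnnd1, hspg2, lama1, tjp1b and mpp1, and the 1 was cd81a. ctnna2, lama1 and mpp1 reached 10% of cells only in c4, where they were higher, so the filter itself favoured that direction. ctnna2, an alpha-catenin gene best known from neurons, was found in 3.61% of the pooled cells (1.99 to 5.98%) and 22.0% of c4 (13.6 to 32.5%), with means of 0.034 and 0.64. ctnnd1, which encodes p120 catenin, had means of 0.17 and 0.54, and the perlecan gene hspg2 had means of 0.22 and 0.58. lama1, which encodes a laminin chain, was found in 2.84% and 13.4% of cells. tjp1b, the paralog of tjp1a, had means of 0.16 in the pooled clusters and 0.45 in c4. cd81a had means of 1.91 in the pooled clusters and 1.42 in c4, although 66.0% of the pooled cells and 89.0% of c4 cells had it. Cluster c4 also differed from the pooled clusters in genes found per cell and in markers of other cell types. Their part in these values was not tested.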
